A study of Mus musculus with 28 samples.

Results

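Axon guidance ligands and receptors were taken as the genes whose symbols belong to the Eph receptor, ephrin, semaphorin, plexin, neuropilin, Robo, Slit, Unc5 and netrin families, together with Dcc and Neo1. By this rule 70 of the 23995 listed genes were members. They were 35 receptors, 34 ligands and 1 antisense RNA, Plxna4os1, which the plexin symbol pattern also takes in.

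Ribosome-bound mRNA was isolated from mice carrying the RiboTag allele, which puts an epitope tag on ribosomes of cells that have expressed Cre, and Pax6-alpha-Cre, which is active in progenitors of the peripheral retina. The superior colliculus (SC), a midbrain target of retinal ganglion cell (RGC) axons, was taken from Cre-positive mice, where the tagged ribosomes are those of retinal axons, and from Cre-negative mice with no tagged ribosomes, which give the background of the immunoprecipitation. Retina was the third tissue, and its tagged ribosomes come from other retinal cell types as well as RGCs. All mice were on a C57BL/6 background and were taken at E17.5, P0.5, P7.5 or adult, and every group had 2 libraries from pooled tissue, 24 in all. Adult SC of Cre-positive mice and adult retina were also sequenced after ribosome run-off and without it, 1 library each, 4 in all. In run-off, elongating ribosomes finish and leave the mRNA before the immunoprecipitation. In these bulk samples, fewer cells or axons and less RNA in each cannot be told apart.

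Ephrins bind Eph receptor tyrosine kinases on contact between cells, and graded ephrin-As in the SC meet graded EphA receptors on retinal axons when the visual map forms. Semaphorins act through plexins, with neuropilins as co-receptors for the secreted class. Slits act through Robo receptors, and netrins through DCC, neogenin and the Unc5 receptors.

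Expression was given in FPKM, a count of fragments scaled by transcript length and library size, so levels of different genes may be compared per length. Estimated depth ran from 482000 to 13607000 fragments, with the lowest in 1 E17.5 Cre-negative library and 514000 to 2093000 in the 4 adult SC libraries. In the shallowest library, 3 fragments on a transcript of 2 kb correspond to 3.11 FPKM. Some genes used by most cells were also listed at 0, among them Gapdh in 18 libraries and Pgk1 in 15, so a 0 may be a failed estimate and is written below as listed at 0. Genes above 0 numbered 4620 and 4923 in the 2 P0.5 Cre-positive libraries and 2162 and 2546 in the 2 P0.5 Cre-negative libraries, and the part of this difference in the results for P0.5 was not tested. RGC markers were not restricted to Cre-positive SC. At P0.5 their summed level was 1100 and 653 FPKM in the Cre-positive libraries and 940 and 330 FPKM in the Cre-negative libraries, where Pou4f1 alone was 705 and 191 FPKM. Of the 7 RGC markers tested, Stmn2 (587 and 408 against 0.26 and 0.10 FPKM) and Slc17a6 (12.2 and 5.13 against 1.46 and 0.22 FPKM) were called higher in Cre-positive SC at P0.5 and none was lower. Rbpms, a defining RGC marker, was listed at 0 in all SC libraries.

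Of the 70 members, 57 were above 0 in at least 1 library and 40 reached 1 FPKM somewhere. The 13 members listed at 0 in all 24 libraries included Epha3 and Epha6, receptors of ephrin-As, Plxnd1, the receptor of Sema3e, and Slit3. The largest number of members at 1 FPKM or more in both libraries of a group was 20, in Cre-positive SC at P0.5. This was 28.6% of the members, beside 14.9% of all genes in the same group. Cre-positive SC had 8 such members at E17.5, 3 at P7.5 and 2 at the adult stage, or 11.4%, 4.29% and 2.86%. Over all genes the shares in these groups were 4.78%, 4.06% and 2.97%. Cre-negative SC had 10, 6, 5 and 1 from E17.5 to the adult, and retina had 4, 3, 2 and 2. All 20 of the P0.5 set are in the plot of levels by library. The Eph receptors among them were Epha2, Epha4, Epha8, Ephb2 and Ephb6, and the plexins were Plxna1, Plxnb2 and Plxnc1.

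**Figure D1:**
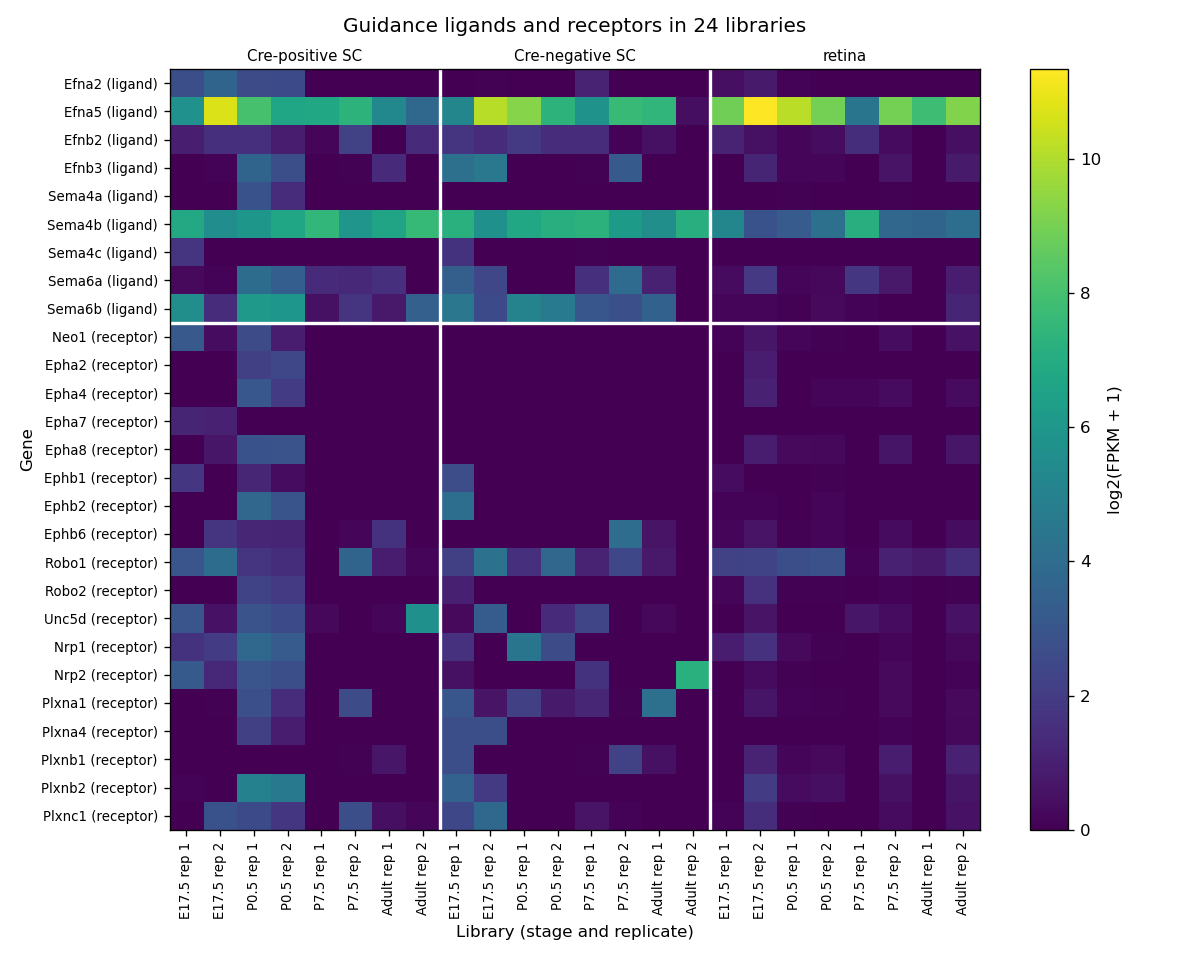
Level of the 27 members that entered the tests in SC, as log2(FPKM + 1) in colour, with genes as rows (9 ligands above, 18 receptors below) and the 24 libraries as columns, grouped by tissue and stage. Efna5 and Sema4b are bright in nearly all columns, and 5 of the 18 receptors, Epha2, Epha4, Epha8, Plxnb2 and Robo2, are brightest in the 2 Cre-positive SC libraries of P0.5.

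Promoter sequence is shown for the 3 members that were higher in Cre-positive SC at P0.5, had a single RefSeq promoter entry and had the same start in GENCODE. They are the receptors Epha4 and Epha8 and the ligand Efna2. Each run is the 250 bases before the start, 5′ to 3′ in the direction of the gene (RefSeq, GRCm38.p6). Epha4 is at chr1:77515089-77515338 on the minus strand, Epha8 at chr4:136956817-136957066 on the minus strand and Efna2 at chr10:80179232-80179481 on the plus strand. Capitals mark the GC box, GGGCGG or CCGCCC on the other strand.
Epha4: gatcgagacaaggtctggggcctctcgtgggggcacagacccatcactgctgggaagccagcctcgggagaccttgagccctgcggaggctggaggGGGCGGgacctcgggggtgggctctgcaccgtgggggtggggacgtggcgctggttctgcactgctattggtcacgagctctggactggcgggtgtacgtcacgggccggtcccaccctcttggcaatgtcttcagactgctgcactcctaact
Epha8: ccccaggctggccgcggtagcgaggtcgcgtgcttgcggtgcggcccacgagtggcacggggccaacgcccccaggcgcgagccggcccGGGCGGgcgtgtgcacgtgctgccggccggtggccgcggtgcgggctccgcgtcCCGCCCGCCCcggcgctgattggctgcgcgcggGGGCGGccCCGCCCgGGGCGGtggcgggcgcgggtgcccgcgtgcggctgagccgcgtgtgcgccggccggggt
Efna2: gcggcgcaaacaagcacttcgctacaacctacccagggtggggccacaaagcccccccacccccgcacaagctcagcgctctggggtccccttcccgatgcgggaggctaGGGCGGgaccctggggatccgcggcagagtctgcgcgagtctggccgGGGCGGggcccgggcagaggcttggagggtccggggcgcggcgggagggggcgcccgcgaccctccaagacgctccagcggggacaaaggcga

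The Epha8 promoter held 6 GC boxes, of which 2 overlap, the Efna2 promoter 2 and the Epha4 promoter 1. Promoter entries were found for 59 of the 70 members. The GC box was in 72.0% of the members' 75 promoters and in 32.7% of all 32851 promoters of this length, which include those of non-coding genes. The motif CCAAT, searched on both strands, was in 28.0% of the members' promoters and 33.8% of all. TATAAA, searched on both strands, was in 2.67% and 12.4%. These matches describe the letters in this window and were not tested.

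To ask which members stood above the background of the immunoprecipitation, Cre-positive and Cre-negative SC were compared at each stage with limma on log2(FPKM + 1). Genes entered when at least 2 of the 16 SC libraries reached 1 FPKM, and an adjusted p of at most 0.05 (Benjamini-Hochberg over 5983 genes) counted as called. In all, 27 members entered. Of these, 7 (Epha2, Epha4, Epha8, Ephb2, Neo1, Robo2 and Sema4a) would not have entered without the P0.5 Cre-positive libraries, and 6 of these 7 were among the calls at P0.5. The same held for 1267 of all genes, 1068 of them called. Differences are on the log2(FPKM + 1) scale, which understates the change of low genes. For genes listed at 0 in a group they are no measure of a fold. The SE pools the spread of all SC groups. For a gene listed at 0 in most of them it can fall below the spread between the P0.5 Cre-positive libraries. The p-value may then be too small.

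At P0.5, the stage at which retinal axons branch in the SC, 11 members were higher in Cre-positive SC and none was lower. In the background 28.1% of the tested genes were higher and 4.35% lower. The median difference was 1.79 for the 27 members and 0.78 for all genes. The called members were 7 receptors and 4 ligands.

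Among the EphA receptors, Epha2 was 3.38 and 4.27 FPKM in the Cre-positive libraries and listed at 0 in both Cre-negative libraries, a difference of 2.26 (SE 0.23, adjusted p = 2.8e-05). Epha8 was 6.24 and 6.42 FPKM against 0 and 0.02 FPKM, a difference of 2.86 (SE 0.32, adjusted p = 4.7e-05). Epha4, which binds ephrins of both classes, was 7.57 and 2.86 FPKM and listed at 0 in both Cre-negative libraries, a difference of 2.52 (SE 0.35, adjusted p = 0.00020). For all 3 the groups did not overlap, and both P0.5 Cre-positive libraries were above each of the other 22 libraries of the study. All 3 entered the test only through these libraries, so the filter largely set this pattern and it adds no support. Over all tested genes, 21.5% had both P0.5 Cre-positive libraries above the other 14 SC libraries. The estimated number of fragments behind these values was 84.5 and 142 for Epha2, 306 and 154 for Epha4 and 188 and 258 for Epha8. Ephb2, a receptor of ephrin-Bs, was 12.4 and 6.61 FPKM in Cre-positive SC and listed at 0 in Cre-negative SC, a difference of 3.34 (SE 0.99, adjusted p = 0.025). It was also at 16.2 FPKM in the shallow E17.5 Cre-negative library, so its P0.5 level was not above all other SC libraries.

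Plxnb2, a receptor of class 4 semaphorins, had the highest level of the called receptors, at 30.5 and 23.1 FPKM in Cre-positive SC, and was listed at 0 in both Cre-negative libraries. Its difference was 4.79 (SE 0.61, adjusted p = 0.00012). It rested on an estimated 1268 and 1280 fragments. Plxna4, which transmits class 3 and class 6 semaphorin signals, was 3.40 and 0.85 FPKM against 0 and 0, a difference of 1.51 (SE 0.43, adjusted p = 0.020). Robo2, a receptor of Slits, was 3.97 and 2.82 FPKM against 0 and 0, a difference of 2.12 (SE 0.34, adjusted p = 0.00057). The related receptor Robo1 did not pass the threshold. It was 2.27 and 1.81 FPKM in Cre-positive SC and 2.0 and 12.3 FPKM in Cre-negative SC, so that the groups overlapped (difference -1.06, SE 1.31, adjusted p = 0.77).

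The called ligands were ephrins and transmembrane semaphorins. Efna2, an ephrin-A, was 5.23 and 4.85 FPKM in Cre-positive SC and listed at 0 in Cre-negative SC, a difference of 2.59 (SE 0.54, adjusted p = 0.0034). Efnb3, an ephrin-B, was 11.6 and 5.52 FPKM against 0 and 0, a difference of 3.18 (SE 0.96, adjusted p = 0.027). Sema6a, a ligand of A-type plexins, was 14.9 and 9.34 FPKM against 0 and 0.01 FPKM, a difference of 3.67 (SE 0.95, adjusted p = 0.012). Sema4a was 6.20 and 1.73 FPKM in Cre-positive SC and listed at 0 in all other SC libraries, a difference of 2.15 (SE 0.37, adjusted p = 0.0011).

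**Figure D2:**
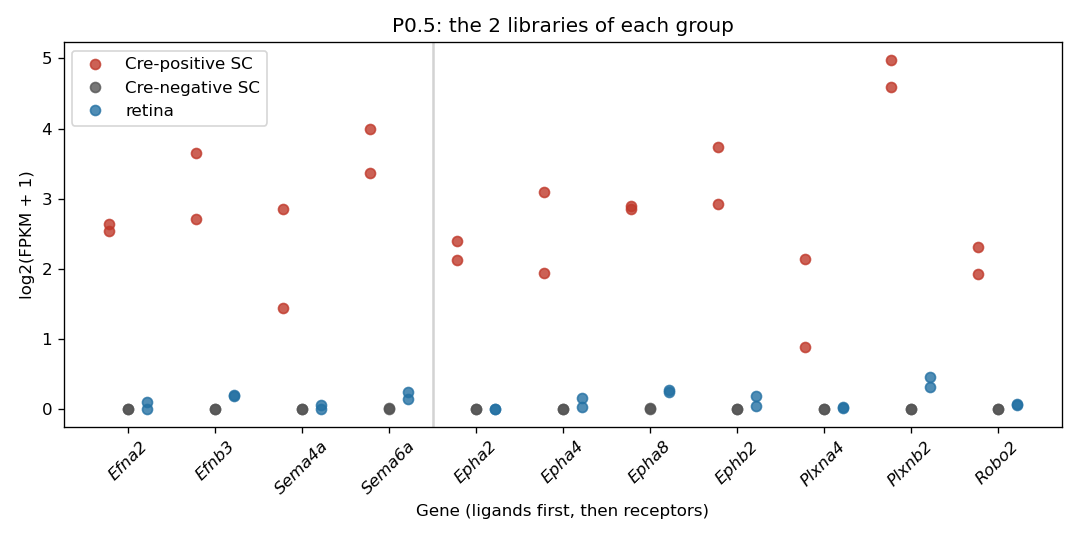
Level of the 11 members called at P0.5 as log2(FPKM + 1), with ligands to the left and receptors to the right. Each point is 1 of the 2 libraries of Cre-positive SC, Cre-negative SC or retina, and both Cre-positive points lie above the other 4 for every gene.

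The other 16 tested members did not pass the threshold at P0.5. Nrp1, the co-receptor of Sema3a, was as high in the background as in the axonal libraries, at 12.8 and 8.45 FPKM in Cre-positive SC and 20.5 and 5.02 FPKM in Cre-negative SC (difference 0.00, SE 0.78, adjusted p = 1). Nrp2 was 6.91 and 5.63 FPKM against 0 and 0.02 FPKM, but its difference of 2.84 had an SE of 1.76 (adjusted p = 0.30), in a fit that also held 1 adult Cre-negative library at 144 FPKM. Sema6b was 70.1 and 61.7 FPKM against 32.5 and 24.3 FPKM, and the groups did not overlap (difference 1.20, SE 1.62, adjusted p = 0.82). Neo1, the neogenin receptor of netrins, was 5.26 and 0.90 FPKM against 0 and 0 (difference 1.79, SE 0.78, adjusted p = 0.115). Unc5d was 6.5 and 4.93 FPKM against 0.02 and 1.51 FPKM (difference 2.06, SE 1.70, adjusted p = 0.49). Slit1, a ligand of Robo receptors, reached 1.33 and 0.96 FPKM in Cre-positive SC and was listed at 0 in the other SC libraries, and it did not enter the test.

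Of the 27 tested members, 7 had both P0.5 Cre-positive libraries above the other 14 SC libraries: Epha2, Epha4, Epha8, Plxnb2, Robo2, Sema4a and Sema6b. The share of all tested genes with this pattern was 21.5%. Of the 7, Epha2, Epha4, Epha8, Robo2 and Sema4a entered only through the P0.5 Cre-positive libraries, so the filter largely set their pattern. When 1 of the 2 P0.5 Cre-positive libraries was left out, 1 member, Plxnb2, remained called at P0.5, whichever library was left out. In those fits 21 and 22 members entered the test, against 27 with all libraries. A recomputed NOISeq, which sets each difference against the noise between replicates of FPKM, also called Plxnb2 alone, while over all genes it called 874 as higher and 224 as lower.

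Beside these calls, Ccnd1, a cyclin of retinal progenitors, was 153 and 164 FPKM in P0.5 Cre-positive SC and 0 and 0.02 FPKM in Cre-negative SC. Of the other 3 progenitor markers listed, Top2a was called lower, at 0 in both Cre-positive libraries and at 12.9 and 4.78 FPKM in Cre-negative SC, and Mki67 and Hes1 were listed at 0 in both groups. The microglial marker C1qa was listed at 0 in Cre-positive SC and stood at 77.0 and 43.2 FPKM in Cre-negative SC, with the other 5 microglial markers at 0 in both groups. Of the astrocyte markers, Gfap, Aqp4 and S100b were listed at 0 in both groups, and the summed level of the 7 was 60.8 and 51.9 FPKM in Cre-positive and 15.9 and 38.3 FPKM in Cre-negative SC. Aldh1l1, one of the astrocyte markers, was called higher, at 19.9 and 18.2 FPKM against 0 and 0.03 FPKM. The part of these cell types in the differences of guidance genes was not tested.

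At E17.5, when retinal axons extend through the SC, 3 of the 27 members were called, beside 1.57% of the tested genes in either direction. Efna2 was 5.51 and 11.7 FPKM in Cre-positive SC and 0 and 0.04 FPKM in Cre-negative SC, a difference of 3.16 (SE 0.54, adjusted p = 0.014). Epha7, an EphA receptor, was 1.22 and 1.05 FPKM against 0 and 0.01 FPKM, a difference of 1.09 (SE 0.17, adjusted p = 0.0099). Epha7 reached 1 FPKM in no other library of the study. It entered the test only through the E17.5 Cre-positive libraries, so the filter largely set its pattern. Efna2 and Epha7 were each higher in both Cre-positive libraries than in either control. The share of all tested genes with this separation was not counted, so it adds no support. Plxna4 went the other way, listed at 0 in both Cre-positive libraries while the Cre-negative ones read 5.64 and 5.62 FPKM, a difference of -2.73 (SE 0.43, adjusted p = 0.0099). The 2 equal values rested on about 35 and 984 estimated fragments. With a block for replicate number, none of the 3 members was called. None of these 3 calls was kept in a fit to the 4 libraries alone or by NOISeq, and without the 5 shallowest SC libraries, a choice made after seeing the data, only Epha7 was called.

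Efnb3 and Plxnb2, which were higher in Cre-positive SC at P0.5, had their values reversed at E17.5. Efnb3 was 0 and 0.08 FPKM in Cre-positive and 17.2 and 22.5 FPKM in Cre-negative SC (difference -4.32, SE 0.96, adjusted p = 0.060). Plxnb2 was 0.08 and 0.02 FPKM against 10.8 and 2.76 FPKM (difference -2.66, SE 0.61, adjusted p = 0.068). Neither passed the threshold. Of the 2 Cre-negative libraries, 1 was the shallowest of the study, at 482000 estimated fragments. The values of 17.2 FPKM for Efnb3 and 10.8 FPKM for Plxnb2 came from that library.

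No member was called by limma at P7.5 or in the adult, and none had an unadjusted p under 0.05 at either stage. Over all genes 0 were called at P7.5 and 9, or 0.15%, in the adult. NOISeq also called no member at P7.5, and in the adult it called Unc5d higher and Nrp2 lower. Each of these rested on a single library. Unc5d was 0.14 and 50.9 FPKM in adult Cre-positive SC, and Nrp2 was 0 and 144 FPKM in adult Cre-negative SC, which held 2093000 estimated fragments. The shallow adult libraries limit what could be detected, since 3 fragments on a transcript of 2 kb correspond to 0.72 to 2.92 FPKM there.

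Between consecutive stages of Cre-positive SC, nearly all calls among the members were for a higher level at P0.5 than before or after it. Calls over all genes went the same way, with 93.3% higher from E17.5 to P0.5 and 1.69% higher from P0.5 to P7.5. Epha2, Epha4, Epha8, Ephb2, Robo2 and Sema4a, called in both intervals, entered only through the P0.5 Cre-positive libraries. For them the filter largely set this direction. From E17.5 to P0.5, 10 members were higher, beside 25.1% of all tested genes, and 1, Epha7, was lower, beside 1.81%. The 10 were Epha2, Epha4, Epha8, Ephb2, Plxna4, Plxnb2, Robo2, Efnb3, Sema4a and Sema6a. Plxnb2 went from 0.08 and 0.02 FPKM to 30.5 and 23.1 FPKM (difference 4.71, SE 0.61, adjusted p = 0.00015), and Epha4 from 0 and 0.01 FPKM to 7.57 and 2.86 FPKM (difference 2.52, SE 0.35, adjusted p = 0.00023). Epha7 went from 1.22 and 1.05 FPKM to 0 in both libraries (difference -1.09, SE 0.17, adjusted p = 0.00062). It entered only through the E17.5 Cre-positive libraries, so the filter largely set this fall. Efna2 was called against Cre-negative SC at both ages and was not among the genes that changed between them.

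From P0.5 to P7.5, 12 members were lower and none was higher, beside 29.2% of all tested genes lower. They were Epha2, Epha4, Epha8, Ephb2, Plxna4, Plxnb2, Robo2, Nrp1, Efna2, Efnb3, Sema4a and Sema6b. Nrp1 fell from 12.8 and 8.45 FPKM to 0.02 and 0 FPKM (difference -3.50, SE 0.78, adjusted p = 0.0057). In Cre-negative SC Nrp1 was listed at 0 at P7.5 as well, after 20.5 and 5.02 FPKM at P0.5. Sema6b fell from 70.1 and 61.7 FPKM to 0.44 and 2.34 FPKM (difference -4.93, SE 1.62, adjusted p = 0.042), and it did not pass with a pseudocount of 0.1 (adjusted p = 0.086) or without the filter (adjusted p = 0.070). No member was called from P7.5 to the adult, and none had an unadjusted p under 0.05. Without either of the P0.5 Cre-positive libraries, Plxnb2 was the only member still called in both intervals around P0.5.

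**Figure D3:**
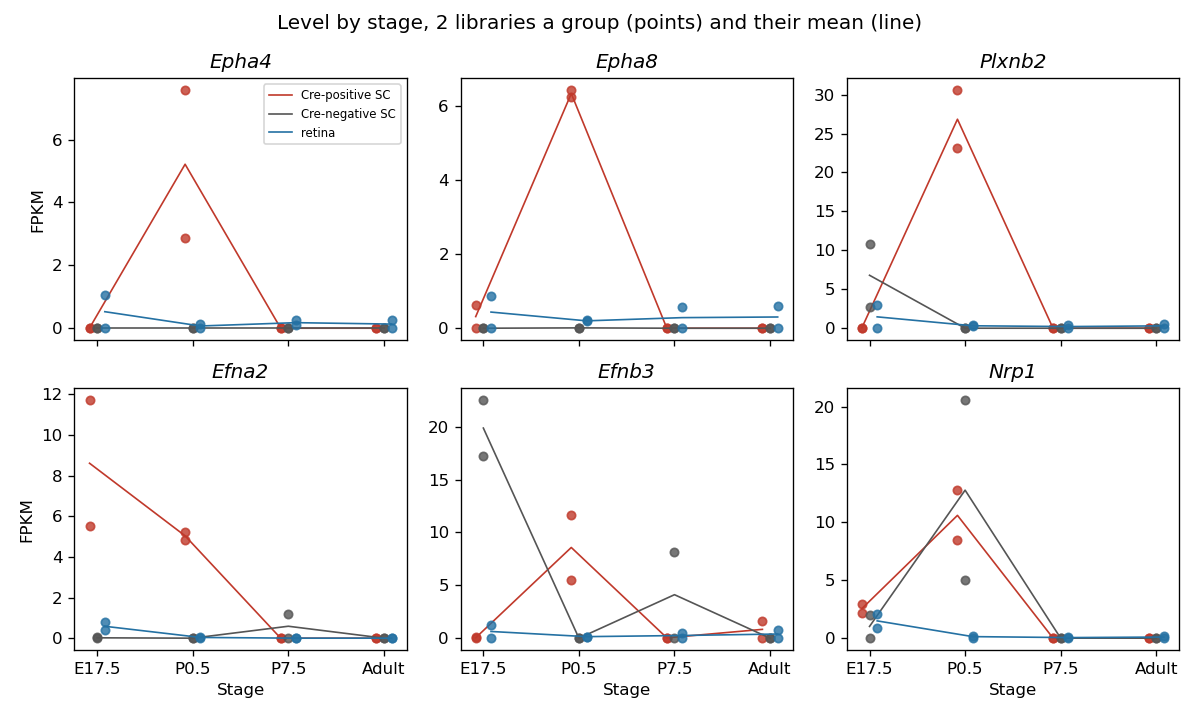
FPKM by stage for Epha4, Epha8, Plxnb2, Efna2, Efnb3 and Nrp1, with 1 point for each of the 2 libraries of a group and a line through the group mean. Epha4, Epha8 and Plxnb2 are highest at P0.5 in Cre-positive SC, while Nrp1 is as high in Cre-negative SC and Efnb3 is highest there at E17.5.

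To ask whether these changes differed from those of the background, the interaction of stage and Cre was tested. It used the same fit, so the same members entered only through the P0.5 Cre-positive libraries. From E17.5 to P0.5, 11 of the 27 members were called, beside 27.1% of all tested genes. In 10 of them the change in Cre-positive SC was above that in Cre-negative SC, and Epha7 was the exception. Epha7 had entered only through the E17.5 Cre-positive libraries. The interaction was 7.45 (SE 0.86, adjusted p = 0.00024) for Plxnb2, 7.5 (SE 1.36, adjusted p = 0.0022) for Efnb3 and 4.24 (SE 0.61, adjusted p = 0.00055) for Plxna4, which all fell in the control as they rose in Cre-positive SC. For Epha2, Epha4 and Sema4a, listed at 0 in Cre-negative SC at both ages, it equalled the change in Cre-positive SC. From P0.5 to P7.5, 9 members were called, all with a change in Cre-positive SC below that in Cre-negative SC, beside 21.5% of all tested genes in either direction. Nrp1 was not among them (interaction 0.01, SE 1.10, adjusted p = 0.99).

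In retina, 7 members entered the fit of 8 libraries, and none was called between consecutive stages. Over all 4083 genes limma called 0, 2 and 0 in the 3 intervals. The 1 member with an unadjusted p under 0.05 was Efna5 from P0.5 to P7.5 (difference -2.88, SE 1.14, adjusted p = 1). Its levels were 1149 and 508 FPKM at P0.5 and 20.4 and 506 FPKM at P7.5, so that 1 of the P7.5 libraries was close to the lower P0.5 level and the other far below it. Most members were listed in retina at levels under 1 FPKM. The receptors with the highest retinal levels were Robo1, at 3.73 and 4.05 FPKM at E17.5 and 5.68 and 5.94 FPKM at P0.5, and Plxnb2, at 2.92 FPKM in 1 E17.5 library and listed at 0 in the other.

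The axonal and retinal translatomes were compared at each stage in a fit of Cre-positive SC with retina, 16 libraries and 6322 genes. This comparison uses the same Cre-positive libraries as the comparison with Cre-negative SC. At P0.5, 14 of 27 members were higher in Cre-positive SC and none lower, beside 32.7% of all tested genes higher. Here 10 members entered only through the P0.5 Cre-positive libraries, and 8 of these were among the calls. The median difference was 2.12 for the members and 1.10 for all genes. Ephb2 was 12.4 and 6.61 FPKM in Cre-positive SC and 0.03 and 0.14 FPKM in retina, a difference of 3.22 (SE 0.36, adjusted p = 4.5e-05). Both neuropilins were called. Nrp1 was 12.8 and 8.45 FPKM against 0.22 and 0.05 FPKM in retina (difference 3.33, SE 0.51, adjusted p = 0.00033), and Nrp2 was 6.91 and 5.63 FPKM against 0.06 and 0 FPKM (difference 2.81, SE 0.58, adjusted p = 0.0025). Sema6b was 70.1 and 61.7 FPKM against 0.04 and 0.21 FPKM (difference 5.90, SE 1.30, adjusted p = 0.0040). Since Nrp1 and Sema6b were also in Cre-negative SC at this age, the difference from retina does not separate axonal mRNA from that of the SC. Plxna1, another plexin, was 5.81 and 1.73 FPKM against 0.09 and 0.05 FPKM (difference 2.01, SE 0.72, adjusted p = 0.049), and it was 3.47 and 0.79 FPKM in Cre-negative SC. It did not pass with a pseudocount of 0.1 (adjusted p = 0.075) or without the filter (adjusted p = 0.098).

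The other 9 members called against retina at P0.5 were Epha2, Epha4, Epha8, Plxnb2, Robo2, Efna2, Efnb3, Sema4a and Sema6a, with differences from 2.05 to 4.40 and adjusted p from 0.00024 to 0.0043. With 1 of the P0.5 Cre-positive libraries left out, fewer members were called. Part of this was the filter: Epha2, Epha8, Ephb2 and Sema4a, which reached 1 FPKM in no other group of this fit, then no longer entered. At E17.5, Efna2 and Epha7 were higher in Cre-positive SC than in retina (differences 2.53 and 1.08, adjusted p = 0.036 and 0.032), beside 0.569% of all tested genes higher. Epha7 entered this fit, too, only through the E17.5 Cre-positive libraries. With a pseudocount of 0.1, with a block for replicate number, or in a fit to the 4 libraries compared, neither Efna2 nor Epha7 was called. No member was called at P7.5 or in the adult. In the adult, Sema4b (difference 3.24, adjusted p = 0.52) and Efna5 (difference -3.94, adjusted p = 0.61) had unadjusted p under 0.05, and at P7.5 no member did.

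Ligands other than those called were led by Efna5 and Sema4b, which were in nearly all libraries. Efna5, an ephrin-A of the SC, ranged from 13.1 to 1713 FPKM in Cre-positive SC, from 0.35 to 1127 FPKM in Cre-negative SC and from 20.4 to 2590 FPKM in retina. At E17.5 the 2 Cre-positive libraries read 51.9 and 1713 FPKM and the 2 Cre-negative libraries 36.1 and 1127 FPKM, so the replicates of a group differed more than the groups did. Sema4b, a transmembrane semaphorin, ranged from 45.8 to 195 FPKM in Cre-positive SC, from 47.4 to 155 FPKM in Cre-negative SC and from 6.29 to 143 FPKM in retina. Neither passed between the 2 SC groups at a stage, where the differences lay between -0.93 and 0.60 for Efna5 (SE 2.39) and between -0.64 and 0.74 for Sema4b (SE 0.99). An axonal part of these 2 ligands was not detectable over the background in SC without tagged ribosomes.

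**Figure D4:**
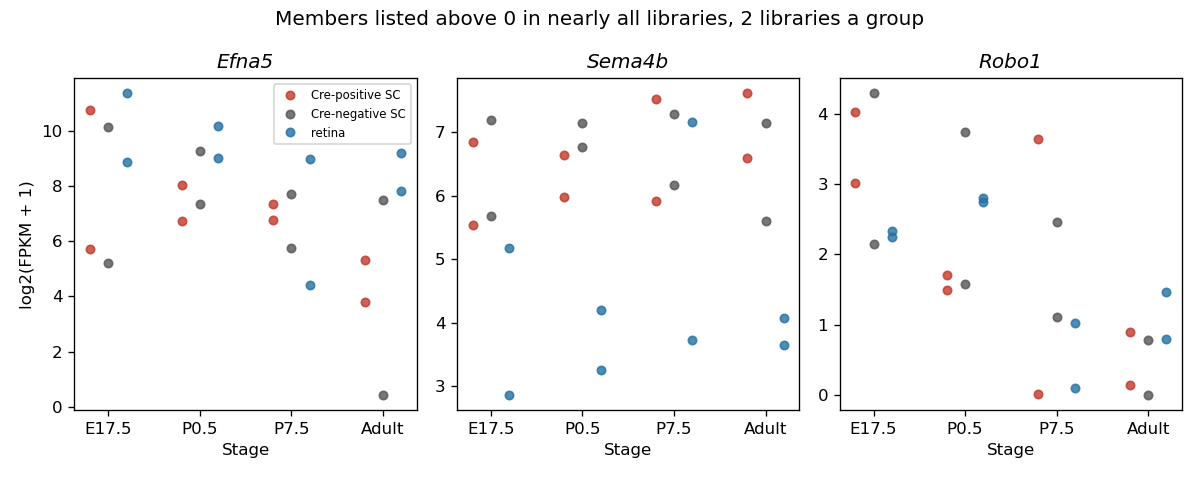
Level of Efna5, Sema4b and Robo1 by stage as log2(FPKM + 1), with 1 point for each of the 2 libraries of a group. The Cre-positive and Cre-negative ranges overlap at every stage except for Sema4b at P0.5, where Cre-negative SC is higher, and Efna5 spreads widely between the 2 libraries of a group.

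Robo1 was 7.04 and 15.3 FPKM at E17.5 in Cre-positive SC and 3.42 and 18.5 FPKM in Cre-negative SC. Efnb2 stayed between 0 and 3.66 FPKM in all SC libraries and Efnb1 between 0 and 1.53 FPKM. Several members that are well known in the retinal projection were low throughout. Epha5 did not exceed 0.35 FPKM and Plxna2 0.32 FPKM, in retina in both cases. Dcc, the netrin receptor, was 1.34 FPKM in the shallow E17.5 Cre-negative library and at most 0.57 FPKM elsewhere, and Ntn1 was 3.49 FPKM in that library and at most 0.54 FPKM elsewhere. Unc5c and Slit2 did not exceed 0.14 FPKM. Sema3a was listed at 0 in all SC libraries and was 0.42 and 0.35 FPKM in E17.5 retina. Efna3, Sema3f and Sema5a did not exceed 0.18 FPKM.

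Further members were above 1 FPKM in scattered single libraries. Sema6d was 5.57 FPKM in 1 E17.5 Cre-positive library and at most 0.03 FPKM in the others. Sema4f was 21.4 FPKM in the other E17.5 Cre-positive library and at most 0.04 FPKM elsewhere, and Epha10 was 8.16 FPKM in 1 E17.5 Cre-positive library. Ephb1 was 2.49 and 0 FPKM in E17.5 Cre-positive SC and 5.33 and 0 FPKM in Cre-negative SC. At P0.5 it was 1.34 and 0.30 FPKM in Cre-positive SC and listed at 0 in Cre-negative SC. Ephb3 was 1.66 FPKM in 1 P7.5 Cre-positive library. Except for Ephb1 at P0.5, the second replicate was at or close to 0 in each of these cases, which leaves the spread as large as the value. The 30 members that never reached 1 FPKM entered no fit with the filter.

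The genes around the receptors were counted from lists of related function. Of 60 signal transducers of guidance receptors, 43 were tested in SC. At P0.5, 6 were higher in Cre-positive SC and 2 lower, with a median difference of 0.09, beside 28.1% higher, 4.35% lower and a median of 0.78 for all genes. Among the higher ones were Cdk5, Crmp1, Dpysl5, Mical1 and Rgs3. Cdk5, a kinase acting downstream of semaphorins, was 71.3 and 41.0 FPKM in Cre-positive SC and listed at 0 in Cre-negative SC (difference 5.78, SE 0.51, adjusted p = 1.1e-05). Cdk5 entered the test only through the P0.5 Cre-positive libraries, so the filter largely set its direction. Mical1, an oxidoreductase of plexin signalling, was 73.1 and 31.1 FPKM against 0.05 and 0 FPKM (difference 5.58, SE 1.21, adjusted p = 0.0046). The kinases Abl1 and Pak3 were lower, with Abl1 listed at 0 in both Cre-positive libraries, against 2.18 and 1.49 FPKM (difference -1.49, SE 0.20, adjusted p = 0.00019). Abl1 entered only through the P0.5 Cre-negative libraries, and the same limit holds for it. From P0.5 to P7.5, 7 transducers were lower and none was higher in Cre-positive SC, beside 29.2% of all genes lower. Against retina at P0.5, 13 of 34 tested were higher, beside 32.7% of all genes, and 1, Rhoa, was lower.

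A second list held 36 other guidance ligands, receptors and modulators, of which 35 had values in all libraries and 20 were tested in SC. At P0.5, 4 were higher in Cre-positive SC and 1 lower, with a median difference of 0.87, beside the same 28.1% higher and 4.35% lower of all genes. Rgma, a ligand of neogenin, was 4.62 and 3.47 FPKM in Cre-positive SC and listed at 0 in Cre-negative SC (difference 2.33, SE 0.24, adjusted p = 2.8e-05). Rgma entered only through the P0.5 Cre-positive libraries, so the filter largely set its direction. Lingo1, a part of the Nogo receptor complex, was 17.8 and 21.3 FPKM against 0 and 0 (difference 4.36, SE 1.46, adjusted p = 0.043). Rtn4, the Nogo protein itself, was lower, at 0 and 0.07 FPKM against 53.6 and 14.1 FPKM (difference -4.80, SE 1.44, adjusted p = 0.026). Ptprf and Ryk were the other 2 that were higher. From P0.5 to P7.5, 4 of the 20 tested were lower in Cre-positive SC and 0 higher, beside 29.2% of all tested genes lower. They were the same 4 genes. Since these were picked as high in the same P0.5 libraries, their fall adds no support. Lingo1 was not called from E17.5 to P0.5, and it read 78.2 and 0.17 FPKM in the E17.5 Cre-positive libraries.

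The run-off libraries of the adult hold read counts on genes and were compared without scaling, with 1 library a condition and no test. The run-off series held no Cre-negative SC, so its SC reads cannot be set against the background of the immunoprecipitation. Cre-positive SC had 3262914 reads without run-off and 349395 with it, and retina 4686284 and 315009. Of 23 members with a read in either SC library, 17 had fewer reads after run-off (73.9%, exact binomial 95% confidence interval 51.6 to 89.8), beside 84.9% of all genes with a read. In retina it was 29 of 31 (93.5%, interval 78.6 to 99.2), beside 92.1% of all genes. Intervals cover counting error only, and PCR copies of a cDNA are not independent. Scaled to the total of each library (CPM), 16 of 23 members in SC and 23 of 31 in retina were lower after run-off, beside 72.3% and 71.9% of all genes.

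In SC, the members with the most reads without run-off were Efna5 and Epha4. Efna5 had 404 reads (exact Poisson interval 366 to 445) without run-off and 0 with it, and the same interval for a count of 0 runs to 3.69 reads. Epha4 had 271 reads (240 to 305) without and 0 with run-off. It was listed at 0 FPKM in both adult Cre-positive libraries of the stage series, which had 731000 and 1290000 estimated fragments. Plxna1 went from 121 reads to 1, Efnb2 from 116 to 0 and Dcc from 30 to 0. Sema7a, Ephb2, Robo4, Sema6c and Sema3b, with 10 to 20 reads each, had none left. In all, 14 of the 20 members that had a read without run-off had none left with it, beside 3107 of 5354 genes over the whole library.

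Some members were kept. Sema4b went from 56 to 17 reads, which in CPM was a rise from 17.2 to 48.7. Unc5d had 79 reads (62.5 to 98.5) without run-off and 103 (84.1 to 125) with it, and these intervals overlap. In CPM, Unc5d rose from 24.2 to 295. Epha10 had 1 read (0.025 to 5.57) without and 75 (59.0 to 94.0) with run-off. Ephb3, Ntn1 and Efnb3 had 4, 2 and 1 reads with run-off and none without.

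In retina, Efna5 went from 729 to 21 reads, Unc5d from 343 to 0, Efnb2 from 237 to 18 and Robo1 from 145 to 18. Ephb1, Epha7, Nrp2 and Epha4 had 83, 61, 56 and 55 reads without run-off and none with it. Sema4b went from 54 to 12 and Sema3a from 47 to 1, and Neo1 kept 22 of 35 reads. In CPM, however, Efnb2 went from 50.6 to 57.1, Robo1 from 30.9 to 57.1, Sema4b from 11.5 to 38.1 and Neo1 from 7.47 to 69.8, so that for these 4 the direction turned with the scaling. The 2 members with more reads after run-off were plexins, Plxnc1 with 8 and 65 reads and Plxnb1 with 13 and 40. Unc5d thus had more reads after run-off in SC and none left in retina, a difference between single libraries with no replicate check.

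**Figure D5:**
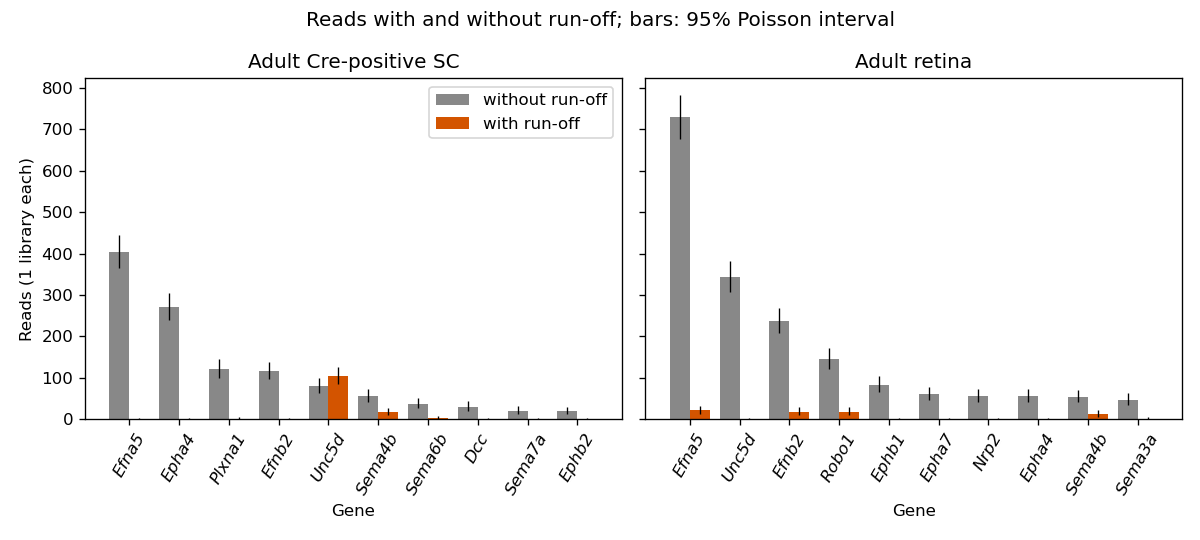
Reads without and with run-off for the 10 members with the most reads without it, in adult Cre-positive SC (left) and adult retina (right), 1 library a bar, with exact Poisson 95% intervals as error bars. Nearly all bars fall to or near 0 with run-off, and Unc5d in SC, with 79 and 103 reads, does not.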

How the data were processed

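The authors mapped reads to mm10 with TopHat2 2.0.12 and deposited, for 24 libraries, FPKM made with Cufflinks 2.2.1, and for the others read counts per gene from HTSeq 0.6.1p1 (4 run-off libraries). cDNA was amplified by PCR before sequencing. Groups and replicate numbers came from the sample labels. The members and gene lists were chosen with earlier results of these data known. FPKM was tested with limma 3.58.1 in R 4.3.3 on log2(FPKM + 1), with trend and robust moderation, on genes that reached 1 FPKM in 2 or more of the libraries fitted, in separate fits of 16 SC, 8 retina and 16 Cre-positive SC and retina libraries. P-values were adjusted by Benjamini-Hochberg over all genes of a contrast, at 0.05. They rest on the spread between pooled samples, shared over all groups of a fit. The method was tested on simulated data. Depth was estimated from the FPKM steps of genes with a single coding transcript, where 70 to 84.0% of low values lay within 0.2 of whole fragments, and fragments of a gene from its longest coding transcript (GENCODE, GRCm38). NOISeq was written anew, with FPKM under 0.5 set to 0.5 and a probability of 0.7. Members named are those called in a limma comparison, those at 10 FPKM or more in both libraries of a group, a list of guidance genes known in the retinal projection, and the 10 with the most reads without run-off in each tissue. Of 23995 genes, 4 had an entry that is not a number and were left out. Alternatives are given at the end.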

Additional observations from a re-analysis of the deposited data

Results flagged for a closer look

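The change between stages differed between Cre-positive and Cre-negative SC, by the interaction term of limma, for the members below, and values are differences of differences in log2(FPKM + 1). From E17.5 to P0.5 the interaction was 7.5 for Efnb3, 7.45 for Plxnb2, 6.39 for Sema6a, 5.39 for Ephb2, 4.24 for Plxna4, 2.61 for Robo2, 2.52 for Epha4, 2.51 for Epha8, 2.26 for Epha2, 2.15 for Sema4a and -1.09 for Epha7. In Efnb3, Plxnb2, Sema6a, Ephb2 and Plxna4, at least 1 E17.5 Cre-negative library was above 4 FPKM. From P0.5 to P7.5 the interaction was -5.07 for Sema6a, -4.79 for Plxnb2, -4.77 for Efnb3, -3.15 for Efna2, -2.86 for Epha8, -2.52 for Epha4, -2.26 for Epha2, -2.15 for Sema4a and -2.14 for Robo2. Sema6a and Efnb3 also rose to 14.7 and 8.17 FPKM in 1 P7.5 Cre-negative library. The share of all genes called in these tests was 27.1% and 21.5%, and the part of the larger number of genes above 0 in the P0.5 Cre-positive libraries was not tested.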

How the results depend on the processing

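The counts of called members at P0.5 kept within 1.5 times of the values above with a pseudocount of 0.1, without the filter, after median-ratio scaling, in fits to the 4 libraries compared and without the 5 shallowest SC libraries, a setting added after the data were seen; the interaction has no fit to 4 libraries. Against Cre-negative SC, NOISeq called 0 members at E17.5 in place of 3, 1 at P0.5 in place of 11 and 2 in the adult in place of 0. At E17.5 the fit to 4 libraries called 0 and the fit without shallow libraries 1. Against retina at E17.5, a pseudocount of 0.1 and the fit to 4 libraries each called 0 in place of 2. Leaving out 1 library gave 2 to 8 members against Cre-negative SC at E17.5, 1 to 7 at P0.5 and 0 to 1 in the adult, where Nrp2 was called lower without 1 Cre-negative library. It gave 1 to 7 from E17.5 to P0.5, 1 to 8 from P0.5 to P7.5, 2 to 12 and 0 to 10 for the 2 interactions, 0 to 1 in retina from P0.5 to P7.5, and 0 to 5, 4 to 13 and 0 to 1 against retina at E17.5, P0.5 and in the adult. Where this left a group with 1 library, that library was assumed to vary like the other groups. In comparisons that hold P0.5 Cre-positive SC, the low counts were those without 1 of its libraries, and the 0 against retina at E17.5 was without 1 E17.5 retina library. The cause was not tested. Of 306 single values of called members with 1 library left out, 210 stayed past the threshold and 96 did not, with fits that a member no longer entered left uncounted. Of 399 under the other alternatives, 378 stayed and 21 did not, among them Ephb2 from E17.5 to P0.5 without the filter (adjusted p = 0.051, limma). None changed sign.

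A replicate block called 0 members in place of 3 against Cre-negative SC at E17.5 and 0 in place of 2 against retina at E17.5, and moved no other count by over 1.5 times. Same-numbered libraries of Cre-positive and Cre-negative SC deviated together with r of 0.417, 0.426, 0.324 and 0.0595 across genes from E17.5 to the adult, and those of Cre-positive SC and retina with 0.126, 0.4, 0.346 and -0.0299. The first 3 of each were above 0.1 and the adult values were not, and the labels do not say what a number stands for, so the block was kept as an alternative.

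Members above 0 in both libraries, in place of 1 FPKM or more, numbered 15 at E17.5, 6 at P7.5 and 6 at the adult stage of Cre-positive SC, 11 and 2 in Cre-negative SC at the last 2 stages, and 22, 32, 16 and 5 in retina from E17.5 on. At 1 FPKM in either library they were 18, 10 and 9 in Cre-positive SC, 21, 14 and 6 in Cre-negative SC, and 14, 5 and 5 in retina, each at E17.5, P7.5 and adult. Of the 19 members with at least 10 reads in retina without run-off, 18 had fewer after it (94.7%, beside 97.3% of all genes), and in SC 12 of 13 had (92.3%, beside 96.6%). Median-ratio scaling shifted the median of all genes by 0.444 and -0.282 in retina from E17.5 to P0.5 and P0.5 to P7.5, and by -0.186 and 0.104 against retina at P0.5 and in the adult. In the adult it moved the share of calls against retina that were higher from 100% of 6 genes to 64.7% of 17.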
